A study of Mus musculus with 4 samples.

Results

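The retinoid genes described here were 9 genes of vitamin A metabolism and signalling, chosen by name, with earlier results of these data known. They were the carriers *Rbp4*, *Crabp1* and *Crabp2*, the enzymes *Aldh1a2* and *Cyp26b1*, and the nuclear receptors *Rara*, *Rarb*, *Rarg* and *Rxra*. All called open-chromatin peaks inside these genes or within 50 kb of them were taken, and overlapping peaks of the libraries were joined into 246 sites, out of 170558 sites in the genome. The measurements were ATAC-seq, in which the transposase Tn5 cuts accessible DNA, so that peaks mark open chromatin. Chondrocytes, the cells of cartilage, came from knee cartilage of C57Bl/6 mice at postnatal days 0 to 4. At passage 0 (P0) the primary cells had been kept in culture for less than 24 h, and at passage 8 (P8) they had been replated each time their number had doubled. Every library came from the same strain, tissue and culture medium, and the labels name no allele or agent that differed between the groups. Each passage had 2 libraries, called A and B here because the peak names did not tell which replicate was which. The labels did not say whether the libraries came from separate mice or cultures, so p-values measure the spread between these libraries only. Passage number and time in culture cannot be told apart in this design.

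Retinol travels in blood bound to RBP4, and inside cells retinaldehyde dehydrogenases oxidize retinaldehyde to retinoic acid. The cellular binding proteins CRABP1 and CRABP2 hold retinoic acid, and enzymes of the CYP26 family break it down. Retinoic acid acts through heterodimers of RAR and RXR receptors on paired copies of a short hexamer in DNA, and in cartilage retinoid signalling is known for holding back chondrocyte differentiation and for promoting the loss of matrix.

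To show the DNA at the gene starts on which the accessibility results turn, the 250 bases before the start of 4 genes are printed 5′ to 3′ from RefSeq, build GRCm38.p6. *Rarb* is shown because its start was open in every library, and *Cyp26b1* because its start carried no peak. *Crabp1* and *Aldh1a2* are shown because peaks at or near their starts were called at P0 and none at P8. Capitals mark a direct repeat of the hexamer bound by retinoic acid receptors, searched as AGGTCA, as the variant GGGTCA, as the variant AGTTCA and as the variant GGTTCA, with 5 bases between the copies. The repeat holds 2 of these hexamers.
Rarb, chr14:16575477-16575726, minus strand: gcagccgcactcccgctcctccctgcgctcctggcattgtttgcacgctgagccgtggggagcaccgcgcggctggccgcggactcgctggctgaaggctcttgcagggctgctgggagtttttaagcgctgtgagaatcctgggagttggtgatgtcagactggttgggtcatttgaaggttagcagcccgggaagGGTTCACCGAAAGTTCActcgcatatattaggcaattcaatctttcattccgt
Crabp1, chr9:54764498-54764747, plus strand: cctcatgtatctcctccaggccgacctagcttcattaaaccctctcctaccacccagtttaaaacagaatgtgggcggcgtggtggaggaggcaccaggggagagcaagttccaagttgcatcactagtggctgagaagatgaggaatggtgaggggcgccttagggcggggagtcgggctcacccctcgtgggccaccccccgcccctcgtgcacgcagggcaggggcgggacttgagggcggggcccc
Aldh1a2, chr9:71215539-71215788, plus strand: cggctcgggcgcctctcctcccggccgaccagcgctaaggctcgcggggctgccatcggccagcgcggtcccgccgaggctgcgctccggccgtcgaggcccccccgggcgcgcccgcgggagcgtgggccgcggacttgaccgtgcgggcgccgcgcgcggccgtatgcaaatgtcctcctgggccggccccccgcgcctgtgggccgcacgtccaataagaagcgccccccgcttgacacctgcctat
Cyp26b1, chr6:84593811-84594060, minus strand: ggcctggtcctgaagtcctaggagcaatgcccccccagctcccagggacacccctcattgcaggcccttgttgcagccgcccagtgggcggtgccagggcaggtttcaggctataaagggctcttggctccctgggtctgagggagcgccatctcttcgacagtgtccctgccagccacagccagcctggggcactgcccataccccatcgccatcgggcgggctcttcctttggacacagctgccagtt
The promoter table held 14 starts of 8 of the 9 genes, and none for *Crabp2*. On either strand, repeats of these hexamers with 5 bases between them were found in 1 of the 14 sequences, each running from 250 bases before to 50 bases after a start, and in 0.0974% of 32851 such sequences in the genome. Repeats with 1 or 2 bases between were found in 0 of the 14, and in 0.222% and 0.268% of all. The *Aldh1a2* stretch was made up of G and C to 77.6%, the *Crabp1* stretch to 63.6%, the *Cyp26b1* stretch to 64.8% and the *Rarb* stretch to 58.0%, and the median over all promoter stretches was 52.4%.

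Depth differed between the passages. The libraries held 144356 and 118849 peaks at P0 and 88578 and 98647 at P8, and the lowest local background, which follows depth, came to 194 and 162 tags per 10 kb in the P0 libraries and to 140 and 134 in those of P8. The deposited files list called peaks only, so a site without a peak had fewer tags than the caller required, and not necessarily none. Markers of the labelled cell type were present: 8 of 8 chondrocyte genes, among them *Col2a1*, *Acan* and *Sox9*, had a peak within 1 kb of a gene end or transcript start in both P0 libraries, and 7 of 8 in both P8 libraries, with *Matn1* lacking one. Fibroblast markers with such a peak numbered 4 of 5 in each P0 library and 3 and 2 of 5 at P8, with *Dpt* lacking one throughout. Of the macrophage and blood list, 2 of 5 genes had one at P0 and 1 of 5 at P8, with *Ptprc*, *Csf1r* and *Adgre1* lacking one in every library. The endothelial list had 2 of 4 in every library, with *Pecam1* and *Cdh5* lacking one. The adipocyte list had 3, 3, 2 and 3 of 4, with *Adipoq* lacking one, and the muscle list 3, 2, 1 and 1 of 3, in P0 libraries A and B and P8 libraries A and B. The summed peaks within 50 kb of the chondrocyte list were 201 and 178 at P0 and 95 and 128 at P8, and those of the fibroblast list 72 and 57 at P0 and 55 and 54 at P8. The part of cell makeup and of depth in the results below was not tested.

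The windows of the 9 genes held more peaks at P0 than at P8, by about the factor seen over the genome. P0 libraries A and B had 201 and 187 peaks there, a mean of 194 ± 9.90 (SD, n = 2), and P8 libraries A and B had 137 and 155, a mean of 146 ± 12.7 (SD, n = 2). The lowest P0 library was above the highest P8 library. The ratio of P0 to P8 was 1.33, and over all peaks it was 1.41. An exact two-sided permutation test gave p = 0.333, which is the smallest value that 2 libraries against 2 can give. Both P0 libraries had more peaks than both P8 libraries at 6 of 9 genes, against 44.9% of 21883 protein-coding genes, and the reverse was seen at 0 of 9, against 3.67%. The ratio was highest at *Cyp26b1* (2.29), lowest at *Aldh1a2* (0.952), and had a median of 1.39 over the 9 genes. Over the 19938 protein-coding genes with a P8 peak the median was 1.28.

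**Figure D1:**
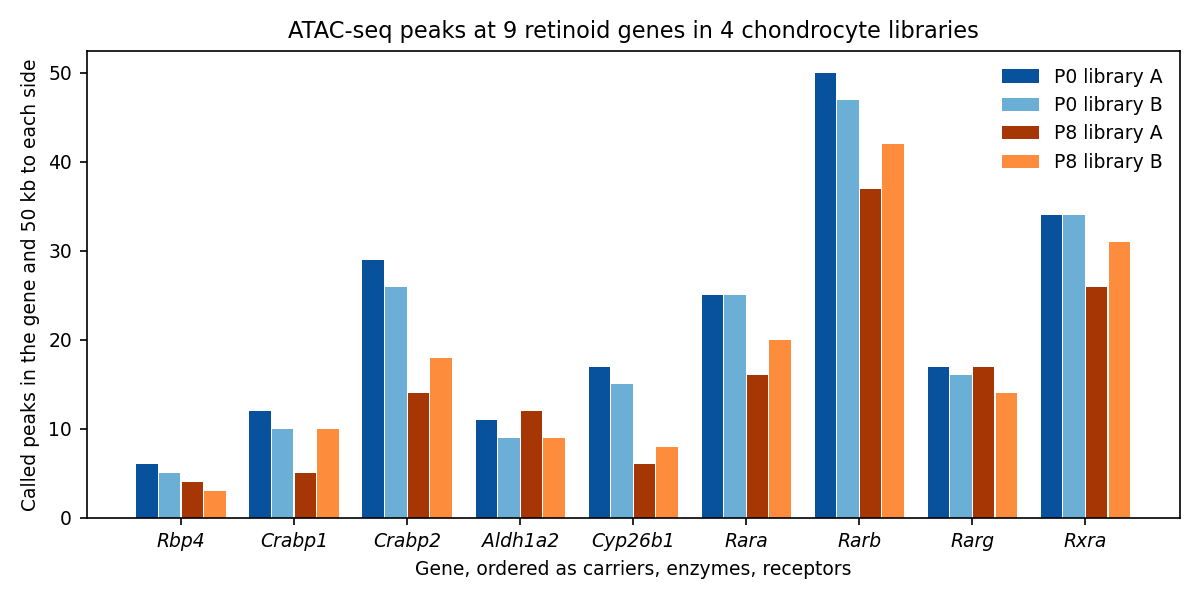
Number of called peaks (vertical axis) in each gene and 50 kb to each side, for 9 retinoid genes (horizontal axis) and 4 libraries (bars). At *Cyp26b1* the P0 libraries had 17 and 15 peaks and the P8 libraries 6 and 8, whereas at *Rarg* the numbers were 17 and 16 against 17 and 14.

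By their pattern over libraries, 41 of the 246 sites (16.7%) had a peak in both P0 libraries and none at P8, against 17.1% of all sites, and 7 sites (2.85%) had a peak in both P8 libraries and none at P0, against 1.82%. Peaks in all 4 libraries marked 88 sites (35.8%, against 32.4%), and the other 110 had other combinations. The sites seen at P0 alone lay in gene bodies (24), in the flanks (14) and within 1 kb of a gene end (3), and the 7 sites seen at P8 alone lay in gene bodies (4) and flanks (3). Sites seen at P0 alone were lower than shared sites, with a median fold enrichment over local background of 4.58 against 7.09, and 5.02 against 7.54 over the genome. They numbered 8 of 56 sites at the carrier genes, 8 of 38 at the enzyme genes and 25 of 152 at the receptor genes, and the sites seen at P8 alone numbered 0, 2 and 5 there.

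At the carriers, *Rbp4*, which encodes the plasma carrier of retinol, kept peaks within 1 kb of its starts at P8. In contrast, *Crabp1*, which encodes a cytosolic retinoic acid-binding protein, had a peak at or near its start at P0 alone. *Rbp4* had 6 and 5 peaks at P0 and 4 and 3 at P8, the fewest of the 9 genes. Its start site (chr19:38124465-38125622, spanning 2 RefSeq starts) had a fold enrichment of 7.32 and 7.50 in P0 libraries A and B and of 6.23 and 5.48 in P8 libraries A and B. No peak of P8 library A covered either start, the nearest lying 0.099 and 0.064 kb away. The value of 6.23 is that of its highest peak anywhere in the joined site. Both P0 values were above both P8 values, but after centring on the median of common sites in each library the log2 difference was 0.07 (SE 0.20, limma adjusted p = 0.857). The pileup, the number of tags at the summit, reached 39 and 32 tags in the P0 libraries and 13 and 12 in the P8 libraries, and when this measure, centred likewise, replaced the fold enrichment the log2 difference was 0.86 (limma adjusted p = 0.00192). Thus the call at the *Rbp4* start depended on whether the local background was divided out. A match to the AP-1 site TGAGTCA, from 142 to 136 bases before the inner start, lay under a peak of each P0 library and outside the peaks of each P8 library. It was 212 and 175 bp from the P0 summits. The highest peaks over the promoter stretch of the inner start were 1158 and 1092 bp wide at P0 and 216 and 515 bp at P8. Their summits lay at -354, -317, -362 and -304 bp from that start. Each P8 library had a further peak in the joined site, on the other side of the match. The match thus lay between called peaks at P8 and within a wider peak at P0. The cause of this difference was not tested. AP-1 matches (TGAGTCA or TGACTCA on either strand) were found in 1 of the 14 promoter sequences of these genes and in 5.20% of all promoter sequences. The strongest site in the *Rbp4* window (chr19:38087110-38087527) lay 29.1 kb from the gene, nearest to *Ffar4*, with a fold enrichment of 8.13, 7.69, 6.43 and 8.08.

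Around *Crabp1*, 12 and 10 peaks were called at P0 and 5 and 10 at P8, so that the groups touched. The site over its start (chr9:54764588-54765054) had a fold enrichment of 4.97 and 5.95 at P0, with pileups of 11 and 12 tags, and no peak in either P8 library. The peak of P0 library A covered the start, and that of P0 library B lay 0.05 kb from it. The nearest P8 peak lay 11.8 kb from the start in each library. A start or end peak found at P0 alone, in each of its libraries, was seen at 2 of the 9 genes, *Crabp1* and *Aldh1a2*, against 3.77% of protein-coding genes. Other sites of the *Crabp1* window were shared, among them the strongest (chr9:54734316-54734767, 30.0 kb upstream and nearest to *Wdr61*), with a fold enrichment of 11.7, 12.7, 10.7 and 11.1. P0 peaks alone were also found 43.5 kb beyond the gene (chr9:54816590-54817004, 6.62 and 5.49) and 32.4 kb before it (chr9:54732243-54732387, 4.47 and 5.02).

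*Crabp2*, whose product delivers retinoic acid to the nuclear receptors, lies in a gene-rich stretch with 6 other protein-coding genes within 50 kb, and 7 of its 33 sites had *Crabp2* as the nearest gene. It had 29 and 26 peaks at P0 and 14 and 18 at P8, which did not overlap. Near its ends the libraries differed in position. A site inside the gene (chr3:87949046-87949204) had a fold enrichment of 4.36 and 3.33 at P0 and no peak at P8, P0 library B had a further peak near the other end (3.60), and P8 library A had one of 5.12 nearby while P8 library B had none. The strongest shared site (chr3:87919237-87919892), 28.8 kb away and nearest to *Mrpl24*, had 11.7, 14.4, 9.45 and 9.45. Further sites with peaks in both P0 libraries alone lay 12.7 kb (6.21 and 6.87), 49.4 kb (5.05 and 3.98) and 18013 bp (4.54 and 3.93) from the gene, nearest to *Isg20l2*, *Bcan* and *Nes*.

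**Figure D2:**
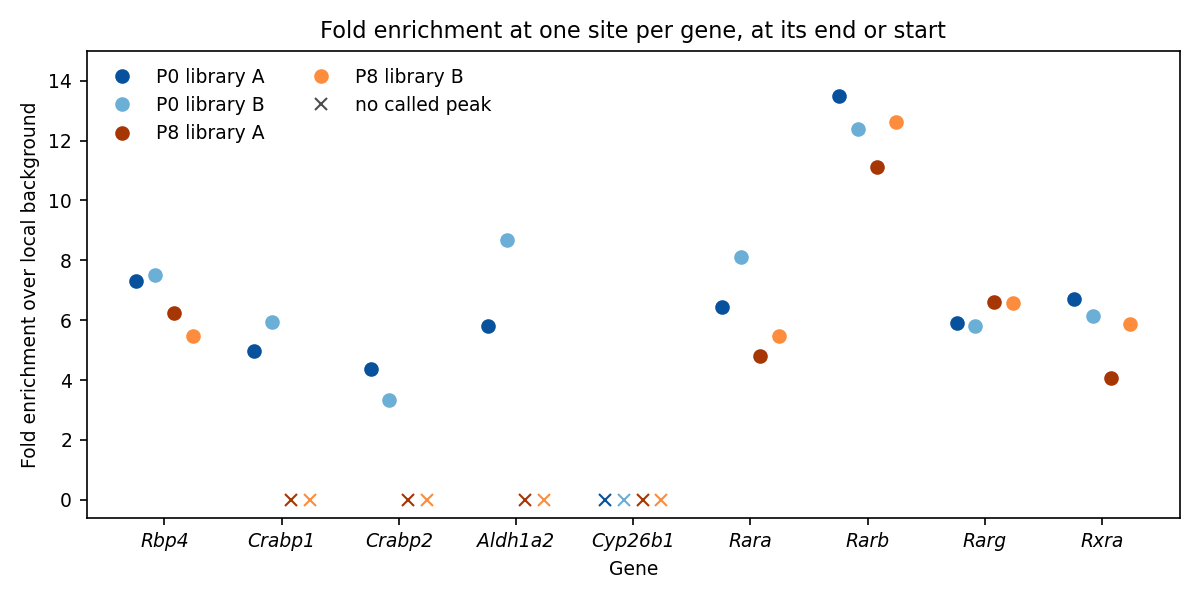
Fold enrichment over local background (vertical axis) in the 4 libraries at one site per gene (horizontal axis), the one within 1 kb of a gene end with the highest mean over the 4 libraries, an absent peak counting as 0, or, for *Rara* and *Rarb*, the site over a RefSeq start; crosses at 0 mean that no peak was called. At the sites plotted, *Crabp1*, *Crabp2* and *Aldh1a2* have values from P0 libraries alone, and *Cyp26b1* has none. *Crabp2* had another gene-end site, not plotted, with a peak of 5.12 in P8 library A.

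The enzymes differed from each other. *Aldh1a2*, encoding the retinaldehyde dehydrogenase that makes retinoic acid, had as many peaks at P8 (12 and 9) as at P0 (11 and 9). Of its 18 sites, 6 had peaks in all 4 libraries, 1 in both P0 libraries alone and 1 in both P8 libraries alone. The site 231 bp upstream of its start (chr9:71215230-71215558) had a fold enrichment of 5.80 and 8.70 at P0, with pileups of 13 and 18 tags, and no peak at P8. P0 library A had a further peak 74 bp before the start (3.73) and P0 library B had one over the start (3.66). The nearest P8 peaks lay 19.1 and 19.0 kb from the start, in a cluster of small peaks seen at P8 alone. One of these sites was shared by both P8 libraries (chr9:71196069-71196207, 4.62 and 3.75), and the 4 others around it were each called in a single P8 library. The strongest site of the window, inside the gene 72968 bp from the start (chr9:71288757-71289140), had 16.0 and 14.8 at P0 and 9.32 and 12.1 at P8, and its centred log2 difference of 0.27 (SE 0.14) did not pass the limma test (adjusted p = 0.242). A site 26.8 kb upstream (chr9:71188658-71189001, nearest to *Aqp9*) had 13.2 and 11.4 at P0 and 5.85 and 5.96 at P8, without overlap. It was higher at P0 by 0.79 on the log2 scale (SE 0.17, limma adjusted p = 0.0102).

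*Cyp26b1*, encoding an enzyme that clears retinoic acid, had no peak within 1 kb of either end in any library, as 28.0% of protein-coding genes, and the nearest peak lay from 3.26 to 3.30 kb from its start in the 4 libraries. The site there, 3.26 kb inside the gene (chr6:84590331-84590551), had 5.05, 4.72, 4.04 and 5.30. The window had 17 and 15 peaks at P0 and 6 and 8 at P8, the widest gap of the 9 genes in proportion. Of its 20 sites, 7 had peaks in both P0 libraries alone and 1 in both P8 libraries alone. The strongest of the 7 lay 19.7 kb upstream (chr6:84613627-84614109, nearest to *Exoc6b*; 7.34 and 8.85), and the next ones in the gene body, 15.6 kb (chr6:84577961-84578196, 6.13 and 5.80) and 5.90 kb (chr6:84587575-84587909, 4.93 and 5.08) from the start. The site seen at P8 alone lay 10.7 kb beyond the gene (chr6:84560530-84560698) with 7.30 and 5.38. In contrast, the 5 shared sites did not pass the limma test in either direction, and the highest of them (chr6:84545496-84545725), 25.7 kb beyond the gene, had 12.4, 9.15, 6.43 and 8.08 (log2 difference 0.29, SE 0.18, limma adjusted p = 0.323).

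**Figure D3:**
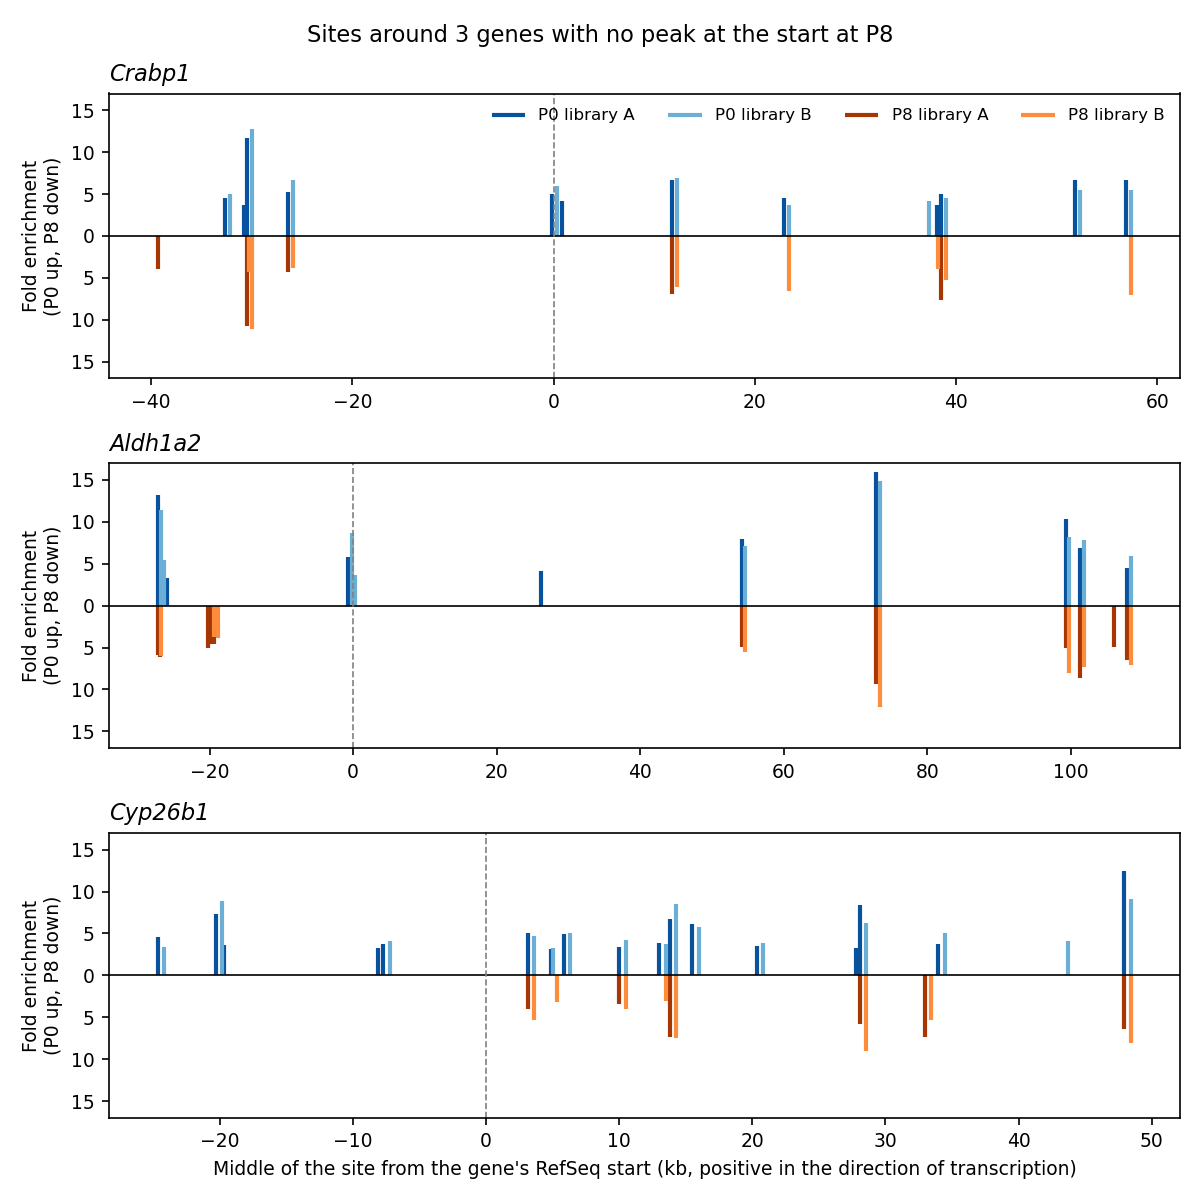
Fold enrichment of each site (vertical axis, P0 libraries upward and P8 libraries downward) by the distance of its middle from the RefSeq start in kb (horizontal axis, positive in the direction of transcription), for *Crabp1*, *Aldh1a2* and *Cyp26b1*. At or near the start of *Crabp1* and *Aldh1a2* bars rise from P0 libraries alone, the P8 cluster about 19 kb upstream of *Aldh1a2* has no P0 bar, and no bar stands at the *Cyp26b1* start.

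The 4 receptor genes, which encode the retinoic acid receptors alpha, beta and gamma and the shared partner RXR alpha, each had a peak within 1 kb of a start in every library. With *Rbp4*, 5 of the 9 genes had an end or start peak in all 4 libraries, against 61.9% of protein-coding genes. *Rarb* stood highest. The site over its start (chr14:16574950-16575861) had a fold enrichment of 13.5 and 12.4 at P0 and 11.1 and 12.6 at P8, the groups overlapped, and the centred log2 difference was -0.15 (SE 0.14, limma adjusted p = 0.535). The direct repeat in capitals above, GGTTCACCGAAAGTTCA at chr14:16575513-16575529, from 53 to 37 bases before the start, lay under the peak of all 4 libraries. The summits were 77, 102, 77 and 80 bp from it in P0 libraries A and B and P8 libraries A and B. *Rarb* spans 651 kb, and its 50 and 47 peaks at P0 and 37 and 42 at P8 came to 6.65, 6.25, 4.92 and 5.59 peaks per 100 kb. Its 67 sites included 12 with peaks in both P0 libraries alone, and the 3 highest of these lay in the part of the gene before the RefSeq start used here, 275, 240 and 292 kb upstream of it (chr14:16850680-16851025, chr14:16815805-16816082 and chr14:16867631-16867880). They had 11.6 and 12.3, 7.70 and 9.46, and 8.69 and 8.24, and together with the site upstream of *Cyp26b1* they were the 4 sites seen at P0 alone with a mean fold enrichment of at least 8. In both P8 libraries alone, *Rarb* had 2 sites (chr14:16813746-16813889, 5.85 and 6.39, and chr14:16513414-16513604, 6.43 and 4.60). The strongest *Rarb* site (chr14:16448503-16449023, 126 kb into the gene) had 12.8, 15.6, 15.8 and 15.2 and did not pass the test (log2 difference -0.40, SE 0.14, limma adjusted p = 0.075).

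*Rara* had 25 peaks in each P0 library and 16 and 20 at P8. Its site over 2 RefSeq starts (chr11:98937355-98937778) had 6.45 and 8.12 at P0 and 4.82 and 5.46 at P8, without overlap, and a centred log2 difference of 0.23 (SE 0.20, limma adjusted p = 0.513). The highest of its 6 sites seen at P0 alone lay 781 bp from another start (chr11:98963811-98964091, 4.59 and 4.57), and the next ones 5.21 kb (5.07 and 4.08) and 5.70 kb (3.58 and 4.09) before the gene, nearest to *Cdc6*. One site of the gene body seen at P8 alone (chr11:98960315-98960558) had 4.79 and 2.99. The strongest site of the window, 19.8 kb upstream and nearest to *Cdc6* (chr11:98907418-98907963), had 17.5, 13.7, 8.82 and 12.3.

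*Rarg* had nearly the same number of peaks at both passages, 17 and 16 against 17 and 14. Its start site (chr15:102257151-102259238) had a lower fold enrichment in both P0 libraries (5.90 and 5.82) than in both P8 libraries (6.62 and 6.58), with a centred log2 difference of -0.44 (SE 0.20, limma adjusted p = 0.158). Its 2 sites seen at P0 alone lay within the gene (chr15:102249223-102249757, 3.59 and 4.44, and chr15:102255916-102256132, 2.93 and 4.07). *Rxra* had 34 peaks in each P0 library and 26 and 31 at P8, and no other protein-coding gene in its window. Its start site (chr2:27676126-27677269) had 6.70 and 6.13 at P0 and 4.07 and 5.89 at P8 (centred log2 difference 0.12, SE 0.21, limma adjusted p = 0.756). The strongest site, 22.3 kb beyond *Rxra* (chr2:27785571-27786633), had 12.2, 13.0, 11.9 and 11.3. The 3 highest of its 5 sites seen at P0 alone had 5.80 and 6.41 (20.1 kb upstream), 3.90 and 5.54, and 4.25 and 4.83 (both in the gene), and its 2 sites seen at P8 alone had 4.45 and 3.86 (46.8 kb beyond the gene) and 3.44 and 3.54 (in the gene).

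Among the 88 sites with a peak in all 4 libraries, limma called 2 higher at P0 and 6 higher at P8 at an adjusted p under 0.05, with the fold enrichment centred on each library's median. Over the genome 3.76% of 55294 such sites were called higher at P0 and 6.23% higher at P8. The 88 differences had a median of -0.13 on the log2 scale, and the median over all 55294 was -0.07. The receptor genes held 62 of the 88 sites and all 6 of those higher at P8 (9.68% of the 62). These comprised 3 sites in *Rarb*, 1 in *Rxra*, 1 in *Rarg* and 1 in *Rara*, whereas those higher at P0 lay in the flanks of *Aldh1a2*, given above, and of *Rarg*. In *Rarb*, a site 319 kb upstream of that start (chr14:16894535-16894832) had 7.45 and 5.49 at P0 and 8.90 and 9.57 at P8, a log2 difference of -0.80 (SE 0.19, limma adjusted p = 0.0152). A site 33.5 kb into the gene (chr14:16541751-16541939) had 5.80 and 4.58 against 6.92 and 7.58 (-0.76, SE 0.20, limma adjusted p = 0.0236), and one 142 kb into it (chr14:16433216-16433683) had 8.51 and 8.80 against 11.3 and 11.5 (-0.67, SE 0.16, limma adjusted p = 0.0141). All 3 *Rarb* sites were thus lower in both P0 libraries than in both P8 libraries.

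The *Rxra* site, 36.2 kb into the gene (chr2:27745524-27745855), had 3.87 and 3.26 at P0 and 4.80 and 5.14 at P8 (-0.75, SE 0.18, limma adjusted p = 0.0158). The *Rarg* site (chr15:102246368-102246687) lay over an inner RefSeq start of that gene, with 2.85 and 2.78 against 3.54 and 3.26 (-0.54, SE 0.15, limma adjusted p = 0.029), and its pileups, not scaled for depth, ran the other way (43 and 33 tags against 25 and 25). The *Rara* site, 2.48 kb from a start (chr11:98942188-98942627), had 3.57 and 3.28 against 4.74 and 4.03 (-0.62, SE 0.18, limma adjusted p = 0.0378). The site higher at P0 in the *Rarg* flank (chr15:102295974-102296457), 38.5 kb from *Rarg* and nearest to *Espl1*, had the highest mean fold enrichment of that window, with 20.1 and 17.1 at P0 and 7.42 and 12.1 at P8 (0.70, SE 0.16, limma adjusted p = 0.0136).

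The 8 called sites kept their direction without the centring, but the calls toward P8 did not pass. All values are then shifted by 0.27 toward P0, and limma made 6 calls toward P0 and 0 toward P8 among the members (20 and 6 at an unadjusted p under 0.05), against 6516 and 589 calls over the genome. In the deposited values, both P0 libraries were above both P8 libraries at 36 of the 88 sites (49.9% over the genome) and below them at 15 (11.6%). Leaving out P0 library A, limma made 0 calls toward P0 and 1 toward P8 (2 and 14 at an unadjusted p under 0.05), and leaving out P0 library B it called 0 and 0 (5 and 14).

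**Figure D4:**
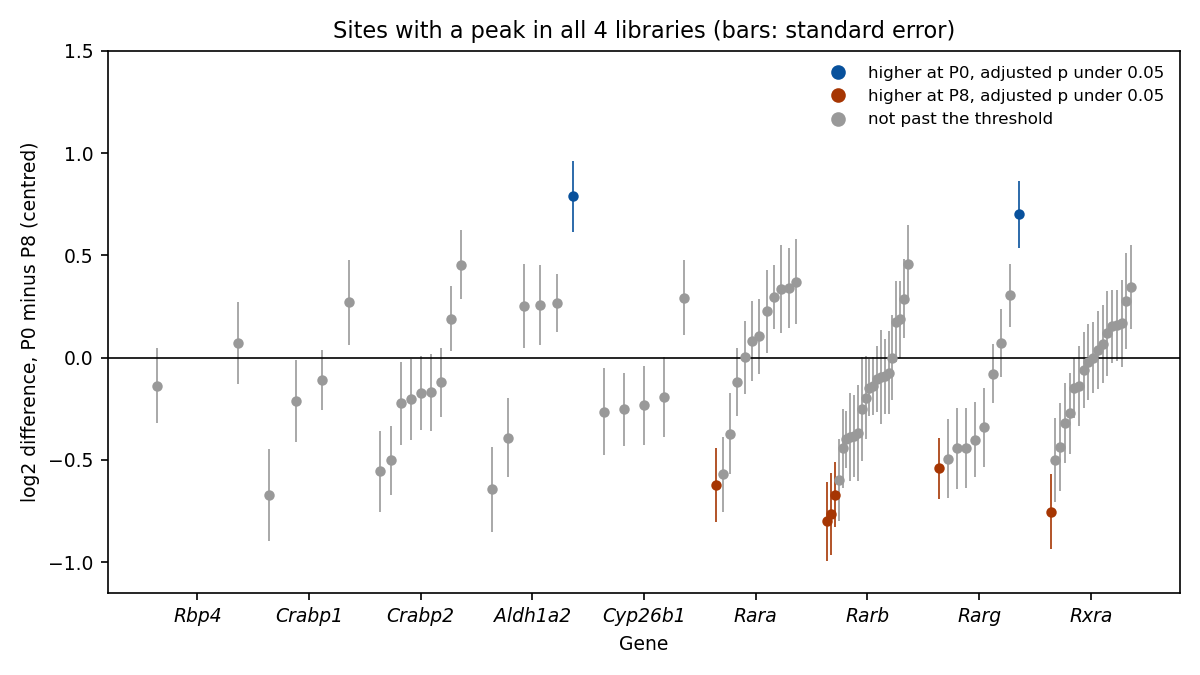
Centred log2 difference of fold enrichment, P0 minus P8 (vertical axis), for the 88 sites with a peak in all 4 libraries, by gene (horizontal axis); points are sites, bars are standard errors from limma, and colours mark the calls. The 2 called sites above 0 belong to the *Aldh1a2* and *Rarg* flanks and the 6 below 0 to *Rarb*, *Rxra*, *Rarg* and *Rara*.

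A wider list of 36 genes, other carriers, enzymes, receptors, coregulators and targets of the retinoid pathway, was described by the same rules. Their windows held 598 sites, of which 99 (16.6%) were seen in both P0 libraries alone, 9 (1.51%) in both P8 libraries alone and 216 (36.1%) in all 4. Over the genome these shares were 17.1%, 1.82% and 32.4%. Both P0 libraries had more peaks than both P8 libraries at 19 of the 36 genes, against 44.9% of protein-coding genes. The reverse was seen at 1, against 3.67%. An end or start peak was present in all 4 libraries for 27 genes, against 61.9% of protein-coding genes. Such a peak in both P0 libraries alone was found for 1, against 3.77%. That gene was *Lrat*, which encodes the acyltransferase that stores retinol as esters. Sites seen at P0 alone numbered 12 at *Ncoa2*, which encodes a nuclear receptor coactivator, and 6 at *Stra6*, which encodes the cell-surface receptor for RBP4. *Ncoa2* had 33 and 25 peaks at P0 and 9 and 11 at P8. The highest numbers of sites seen at P8 alone were 2 each at *Rbp3* and *Rbp7*. Of the 216 shared sites, limma called 4 higher at P0 and 14 higher at P8 after centring, against 3.76% and 6.23% of such sites over the genome. Among the called sites, 1 lay at a gene end, that of the retinaldehyde reductase gene *Dhrs3* (chr4:144892120-144892874, limma adjusted p = 0.0189, higher at P8).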

How the data were processed

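ATAC-seq libraries of mouse chondrocytes (2 at P0, 2 at P8) were sequenced as 50 bp paired-end reads. The authors aligned them with Bowtie2 to mm10 (the build is from the submitters' processing notes, which give no tool versions) and called peaks with MACS2 at default parameters in each library. The peak tables deposited by the authors give the summit pileup, a signal in tags with no scaling for depth. The deposited fold enrichment is the ratio of that pileup to the local background, 1 tag being added to each. The authors also deposited −log10 p-values and q-values, computed within a library. The deposited comparison of the passages made by the authors with DiffBind (fold changes and FDR per site) was not used. No per-library column was left unused (0).

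Libraries were told apart by the prefix of the peak names. Of 455071 peaks, 1.02% lay on other contigs and were left out. Peaks sharing at least 1 bp were joined into sites, and the highest peak stood for a library. Gene coordinates were taken from RefSeq for GRCm38.p6, the assembly also called mm10, with transcript starts from its promoter table. Gene ends alone missed the *Rara* and *Rarb* starts, so starts were added after values were seen. Sites with peaks in all 4 libraries were compared with limma 3.58.1 (R 4.3.3; moderated test with an intensity trend) on log2 fold enrichment centred on each library's median, with Benjamini-Hochberg adjustment over all sites and a threshold of 0.05. Counts per library were compared by an exact permutation test. The overlap code and the limma code were tested on simulated data. Python 3.11.15, pandas 2.3.3 and scipy 1.17.1 were used. Named were, for each gene, the gene-end site with the highest mean fold enrichment over the 4 libraries, sites over a start, the site with the highest mean in the window, every site past the threshold and up to 3 sites seen at one passage alone. An absent peak counted as 0 in the gene-end mean. A mean over called peaks only would choose the same gene-end sites except at *Crabp2*, where it would choose the one called in P8 library A. This reading was settled after values were seen. Members, lists and rules were chosen with earlier results of these data known. Sequences came from RefSeq (GRCm38.p6), and sequences under peaks away from starts were not analysed here. Values of some genes of the wider list are not reported here.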

Additional observations from a re-analysis of the deposited data

How the results depend on the processing

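The ratio of peaks at P0 to P8 stayed above 1 in all alternatives run, from 1.25 to 1.42 (windows of 10 and 100 kb, matched background, a −log10 q of at least 5, each library left out). The number of sites seen at P0 alone stayed within 1.5 times of 41 with all libraries kept. It ran from 49 to 69 when 1 library was left out, where fewer libraries had to agree. These were from 20.9% to 29.9% of the member sites, against from 20.5% to 37.2% of all sites. The number of sites seen at P8 alone, 7, was 4 at 10 kb, 2 at a −log10 q of at least 5, 23 at a reciprocal overlap of 50%, and from 7 to 18 with 1 library left out. In that order these were 2.52%, 1.18%, 5.91% and from 3.03% to 7.6% of the member sites. The shares of all sites at the same settings were 1.82%, 1.57%, 4.41% and from 2.19% to 7.6%. Counting the sites nearest to a member only (chosen after seeing the data) gave 32 and 7 of 183.

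The limma calls among member sites were the least stable. Against 2 higher at P0 and 6 higher at P8, no centring gave 6 and 0, pileup over local background 1 and 2, the pileup at the summit 6 and 14, and absent peaks set at the lowest fold enrichment 15 and 6. Leaving out 1 library gave from 0 to 4 higher at P0 and from 0 to 9 higher at P8, and the lone library of a passage is then assumed to vary like the others. Over the genome the same settings gave from 55 to 16039 and from 134 to 7547 calls. No gene-end site of a member passed in the main comparison (limma, 0 of 3 tested). An unadjusted limma p under 0.05 was seen at 1, that of *Rarg*. With the pileup at the summit 2 passed (*Rbp4* and *Rxra*), where the highest peaks of the libraries did not all lie at the same place. With absent peaks at the lowest value 2 of 6 passed. Differences at 4 start sites that did not pass changed sign, and that of *Rara* stayed positive, from 0.043 to 0.50. *Rbp4* went to -0.15 with pileup over local background and ran from -0.10 to 0.24 with 1 library left out, *Rxra* ran from -0.073 to 0.31 there, *Rarb* went to 0.12 without centring and 0.051 with the pileup, and *Rarg* to 0.14 with the pileup. The cause of these changes was not tested. For the wider list, 58 sites were seen at P0 alone at 10 kb and 161 at 100 kb, shares of 17.9% and 16.7%.

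No paired analysis was possible because the peak names carry no replicate number. With 2 libraries a passage, and with depth higher at P0, no tag count is known for a site without a peak. The lowest pileup of any called peak was 6 tags in each library.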

Other observations

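Of the wider list, 5 of 36 genes had no end or start peak in any library, against 28.0% of protein-coding genes. They included *Cyp26a1*, which encodes another retinoic acid hydroxylase, and *Rbp3*, which encodes a retinoid-binding protein. Also among them were *Ttr*, which encodes the plasma partner of RBP4, and *Bco1*, which encodes the enzyme that cleaves beta-carotene. *Cyp26a1* and *Cyp26c1* lie together, and both windows had 7 and 5 peaks at P0 and 2 and 4 at P8. *Adh1*, an alcohol dehydrogenase gene, had 5 and 2 peaks at P0 and 0 and 0 at P8.

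The genes whose strongest end site was nearest to that of *Rbp4*, by Euclidean distance of centred log2 fold enrichment over the 4 libraries among 12795 genes, were *Uqcr10* and *Zmat5*, which shared a site (distance 0.0602; fold enrichment 7.45, 7.78, 6.24 and 5.46), and *Neil2* (distance 0.0656; 7.25, 7.78, 6.27 and 5.61).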
